A study of Mus musculus with 24 samples.

Results

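Apol11a and Apol11b are 2 of the 54752 genes in a table of transcript levels from mouse bone marrow, and both are among the 12373 genes tested. They were picked from these same data, because their levels were lower after spaceflight and higher in mice without Nrf2. The values that chose them are therefore given below as a description, with no test. The study sent male mice of C57BL/6 background to space for 31 days and kept others on the ground, and each group had 6 mice. GC-WT mice were wild type and stayed on the ground, and FL-WT mice were wild type and flew. GC-KO and FL-KO mice were Nrf2 knockout mice kept on the ground and flown, respectively. Flight is compared within each genotype (the wild-type and the knockout flight comparison), and genotype within each place (the ground and the in-flight genotype comparison, knockout against wild type). The mice were young adults at transport. Flown mice were killed after their return to the ground, so "in flight" below names flown mice, not tissue taken in space. Flight and the return from it cannot be told apart. Marrow cells were frozen before RNA was extracted, and flight samples were collected in the United States while ground samples were collected in Japan, so site and flight cannot be told apart.

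Apolipoprotein L genes encode proteins with a helical, membrane-interacting core, and the mouse holds a cluster of them that arose by repeated duplication. In humans the family is best known for APOL1, which lyses trypanosomes and whose variants are linked to kidney disease. Several members respond to interferon. Nrf2, encoded by Nfe2l2, is a transcription factor that binds antioxidant response elements and switches on detoxifying and glutathione-forming enzymes. Bone marrow holds developing red cells, neutrophils, lymphocytes and their precursors, so a change in level may be a change in cells or in RNA per cell, which bulk RNA cannot tell apart.

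Both genes lie in the cluster on chromosome 15 (GRCm38, GENCODE M21). Apol11a (ENSMUSG00000091650.2) runs from 77508271 to 77518051 on the plus strand. Apol11b (ENSMUSG00000091694.9) runs from 77633946 to 77643286 on the minus strand, 115.9 kb away. The main transcript of each, Apol11a-201 and Apol11b-201, has 4 exons and measures 1864 and 2062 nucleotides. Their transcripts were 94.9% identical over the aligned part and their coding sequences 95.1%. Of all stretches of 50 nucleotides in Apol11a-201, 15.3% occurred letter for letter in any transcript of Apol11b. Of those in Apol11b-201, 13.8% occurred in Apol11a. For stretches of 100 nucleotides these shares were 2.7% and 2.4%. Reads that lie wholly in a shared stretch fit both genes and were divided between them by the authors' estimator. Part of each value depends on that division, and how large a part is not known, since the read length is not given in the sources used.

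The 250 bases upstream of both genes are printed because they were identical at 250 of 250 positions. Apol11a upstream spans chr15:77508019-77508268 on the plus strand, Apol11b upstream spans chr15:77643287-77643536 on the minus strand, and Apol10a upstream spans chr15:77476797-77477046 on the plus strand (RefSeq, GRCm38.p6). Capitals mark matches to a GATA motif (AGATAA or AGATAG or TGATAA or TGATAG, on either strand) and to an interferon motif (TTTC, any 2 bases, then TTTC, on either strand).
Apol11a and Apol11b: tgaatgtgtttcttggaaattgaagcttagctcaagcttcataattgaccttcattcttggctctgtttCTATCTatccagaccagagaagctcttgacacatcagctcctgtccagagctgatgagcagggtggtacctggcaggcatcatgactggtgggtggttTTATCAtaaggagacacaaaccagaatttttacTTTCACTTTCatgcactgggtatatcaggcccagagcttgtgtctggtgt
Apol10a: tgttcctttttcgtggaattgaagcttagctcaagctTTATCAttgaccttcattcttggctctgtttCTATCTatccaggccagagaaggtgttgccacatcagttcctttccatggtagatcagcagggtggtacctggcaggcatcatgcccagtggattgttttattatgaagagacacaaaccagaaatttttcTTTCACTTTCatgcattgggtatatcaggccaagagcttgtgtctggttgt

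The first bases after these 250 differed between the pair at A1G and C2T, with the base of Apol11a first and positions counted from 1 at the first base after the upstream stretch. The upstream stretch of Apol10a was 87.6% identical to that of Apol11a, and that of Apol8 63.6%. Both Apol11 genes held 2 GATA matches, which begin at positions -181 and -83 relative to the start on the minus strand, and 1 interferon match at -50. Apol10a held 2 GATA matches and 1 interferon match, and Apol8 held neither. No match to CCNCNCCC, a motif of the KLF family, or to TGACNNNGC, the core of the antioxidant element, was found in any of these stretches. Among 32851 promoter windows in the RefSeq table, 26.5% held a GATA match, 3.0% an interferon match, 45.9% the KLF motif and 10.2% the antioxidant core, and 0.99% held a GATA and an interferon match together. A match is only a match of letters, and nothing about binding was measured.

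The libraries are given in TPM, a level scaled to the length of each transcript and to a fixed total per library, so the number of reads behind a value is unknown. Nfe2l2 was measured at 17.05 to 26.06 TPM in GC-WT and 11.39 to 27.26 TPM in FL-WT, against 3.6 to 7.18 TPM in GC-KO and 2.22 to 4.31 TPM in FL-KO, so all 12 knockout libraries lay below all 12 wild-type ones. Small structural RNAs (Rn7s1, Rn7s2, Rn7sk, Rpph1 and Rmrp) held 35.4% to 59.6% of all TPM per library, and the globin genes 8.62% to 24.3%. The median difference over all tested genes was -0.24, -0.29, -0.22 and -0.25 on the log2 scale in the wild-type flight, knockout flight, ground genotype and in-flight genotype comparisons, and between -0.001 and 0.025 after scaling libraries by the median of ratios. Changes of the pair are therefore also given relative to those medians. GC-WT mouse 8 stood apart from its group in both genes on the TPM scale, and results that rest on it are given with and without it.

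Apol11b was the more abundant gene, ranking 742 of 12373 tested genes by mean TPM against 6567 for Apol11a. In GC-WT its lowest, median and highest values were 28.32, 30.8 and 99.71 TPM. For FL-WT the same values were 12.67, 15.9 and 18.48 TPM. GC-KO mice ranged over 45.68, 64.3 and 85.35 TPM, and FL-KO mice over 26.16, 30.8 and 45.37 TPM. All FL-WT mice lay below all GC-WT mice, and all FL-KO mice below all GC-KO mice. Every FL-KO mouse lay above every FL-WT mouse, whereas GC-KO and GC-WT overlapped because of GC-WT mouse 8 at 99.71 TPM and mouse 10 at 52.8 TPM. The mean was 45.3 ± 28.2 TPM (SD, n = 6) for GC-WT and 15.5 ± 2.21 for FL-WT, against 64.7 ± 16.5 for GC-KO and 32.7 ± 7.1 for FL-KO. The mean of FL-KO, 32.7 TPM, was close to the 34.4 ± 10.4 TPM of the 5 GC-WT mice other than mouse 8.

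Apol11a showed the same order of group means at a lower level, with group means of Apol11b 10.6 to 24.4 times as high. Its lowest, median and highest values were 1.37, 2.5 and 10.36 TPM in GC-WT and 0.44, 0.605 and 0.88 TPM in FL-WT. In GC-KO they were 4.45, 5.96 and 7.43 TPM, and in FL-KO 2.13, 2.29 and 3.68 TPM. Again no flight mouse overlapped a ground mouse of its genotype, no FL-KO mouse overlapped an FL-WT mouse, and GC-KO overlapped GC-WT only at mouse 8. From highest to lowest, group means were 6.12 ± 1.17 TPM (SD, n = 6) in GC-KO, 3.8 ± 3.33 in GC-WT, 2.65 ± 0.694 in FL-KO and 0.635 ± 0.158 in FL-WT. The means of GC-WT and FL-KO, neighbours in this order, differed by less than the SD of GC-WT for both genes. Their order for Apol11a rested on mouse 8, since the other 5 GC-WT mice averaged 2.49 ± 0.979 TPM, below FL-KO at 2.65, whereas for Apol11b they stayed above FL-KO (34.4 against 32.7 TPM).

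**Figure D1:**
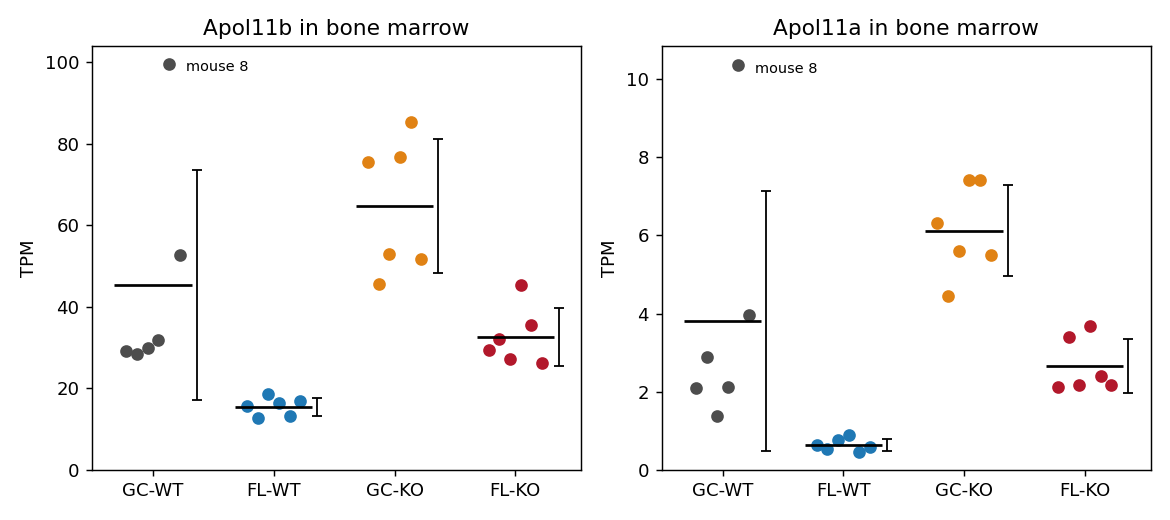
Each point is the level of Apol11b (left) or Apol11a (right) in TPM in 1 mouse, by group, with the group mean as a line and 1 SD as a bar beside it. For both genes FL-WT is lowest and GC-KO highest by mean, and GC-WT mouse 8 (99.71 and 10.36 TPM) stands above every other mouse.

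On the log2(TPM + 1) scale, which understates changes of low genes, Apol11a differed by -1.34 (SE 0.23) in the wild-type flight comparison and -0.97 (SE 0.23) in the knockout one. Apol11b differed by -1.33 (SE 0.23) and -0.95 (SE 0.23). By genotype on the ground the differences were 0.77 (SE 0.23) for Apol11a and 0.64 (SE 0.23) for Apol11b, and by genotype in flight 1.15 (SE 0.23) and 1.02 (SE 0.23). Relative to the median of all tested genes, Apol11a differed by -1.1, -0.68, 0.99 and 1.4 in these 4 comparisons, and Apol11b by -1.09, -0.66, 0.86 and 1.27. Comparisons share groups, so these values are not independent of each other. Without GC-WT mouse 8 the wild-type flight difference was -1.05 for Apol11a and -1.07 for Apol11b, and the ground genotype difference 1.06 and 0.9.

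For all tested genes, mice in the flight group lay wholly below ground mice in 4.19% of genes in wild-type mice and 18.4% in knockout mice. Knockout mice lay wholly above wild-type mice in 0.218% of genes on the ground and 0.307% in flight. A differentially expressed gene (DEG) is a gene with a Benjamini-Hochberg adjusted p below 0.1 in limma and a difference of at least 1 on the log2 scale. After flight 0.938% of genes were lower DEGs and 0.0647% higher in wild-type mice, and 2.13% and 0.0% in knockout mice. By genotype 3.04% were lower and 0.129% higher DEGs on the ground, and 8.36% and 0.097% in flight. Of the 12373 genes, 1270 (10.3%), both Apol11 genes included, had all 4 differences in the direction of the choice, and none had all 4 at 1 or more. By the smallest of the 4 differences Apol11a stood 4th at 0.77 and Apol11b 5th at 0.64. Just ahead were Gm20236 and Gm37094 (0.84 each) and Gm19427 (0.78), and just behind was the pseudogene Cyp4b1-ps2 (0.56). Gm20236 and Gm37094 hold identical values, so they count 1 signal in 2 places. The differences of Gm19427 had an SE of 0.53, so its place is loosely set.

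Whether flight changed the pair by a different amount in the knockout was tested, since the choice did not use it. The interaction was 0.38 (SE 0.33) for Apol11a and 0.38 (SE 0.32) for Apol11b, with unadjusted p of 0.255 and 0.247 and adjusted p of 1.0 for both in limma across all genes. A difference of this size could not be told from the spread between mice, and a p above the threshold does not show that flight acted alike in both genotypes. Across all genes the interaction passed the DEG rule for 2 genes (0.0162%) and had an unadjusted p under 0.05 for 428 (3.46%). Without GC-WT mouse 8 the interaction was 0.09 for Apol11a and 0.12 for Apol11b.

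In exact permutation tests the balance within the pair passed an adjusted p of 0.05 in 2 of the 4 comparisons, both with FL-WT. Apol11a made up 7.17 ± 1.91% (SD, n = 6) of the summed TPM of both genes for GC-WT and 3.92 ± 0.668% for FL-WT, against 8.77 ± 0.788% for GC-KO and 7.52 ± 1.11% for FL-KO. The lowest, median and highest shares were 4.4, 6.85 and 9.41% in GC-WT and 3.24, 3.87 and 5.14% in FL-WT. They were 7.71, 8.84 and 9.62% in GC-KO and 6.3, 7.42 and 9.53% in FL-KO. The share differed by -3.25 percentage points between FL-WT and GC-WT, lower in flight (exact two-sided permutation test over 924 arrangements, p = 0.00433, adjusted p = 0.00866 over 4 comparisons), and by -2.8 points without GC-WT mouse 8. It was 3.6 points higher in FL-KO than in FL-WT (exact permutation p = 0.00216, adjusted p = 0.00866), with no overlap between the groups. FL-KO minus GC-KO was -1.25 points (exact permutation p = 0.0519, adjusted p = 0.0693), and GC-KO was 1.6 points above GC-WT (exact permutation p = 0.0844, adjusted p = 0.0844), and neither passed 0.05. The share is computed from the levels that chose the pair, so these tests are not independent of that choice. In FL-WT, Apol11a was at 0.44 to 0.88 TPM, below the filter of 1 TPM in every mouse, and it passed the filter through other groups. How the estimator divided shared reads in FL-WT was not tested.

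**Figure D2:**
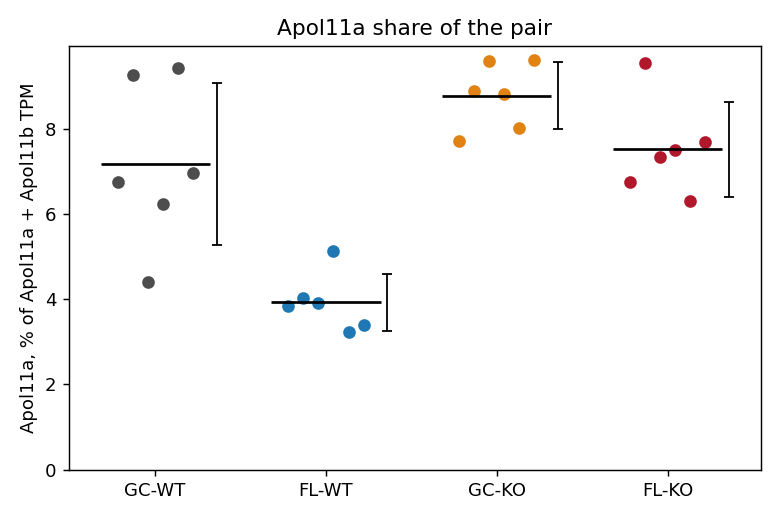
Apol11a as a percentage of the summed TPM of Apol11a and Apol11b in each mouse (points), with group means (lines) and 1 SD (bars). FL-WT, at 3.24% to 5.14%, lies wholly below GC-KO and FL-KO.

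Mice of a group with more Apol11a had more Apol11b. Deviations from group means over the 24 mice correlated with Pearson's r = 0.90 (permutation p = 2e-05, adjusted p = 0.00026 over 13 relations) and Spearman's rho = 0.85 (permutation p = 3e-05, adjusted p = 0.00039). Without the 2 mice farthest from the median, GC-WT mice 6 and 8, r was 0.85, and without mouse 8 alone 0.78. Within single groups of 6 mice r was 0.94 for GC-WT, 0.73 for FL-WT, 0.94 for GC-KO and 0.78 for FL-KO. The value for GC-WT includes mouse 8 and is not given without it. The shared stretches of sequence above bear on this relation, and their part in it was not tested.

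Lists of red cell genes were also compared with the pair from mouse to mouse. With heme biosynthesis genes, Apol11b gave r = 0.55 (permutation p = 0.0152, adjusted p = 0.0989) and rho = 0.58 (permutation p = 0.00474, adjusted p = 0.0308). With erythroid markers it gave r = 0.55 (permutation p = 0.0281, adjusted p = 0.122) and rho = 0.57 (permutation p = 0.00714, adjusted p = 0.0309). In both, the rank relation passed 0.05 after adjustment and Pearson's did not, and r fell to 0.49 without FL-WT mouse 5 and GC-WT mouse 5. Without GC-WT mouse 8, r was 0.51 with heme biosynthesis genes and 0.56 with erythroid markers. Red cell membrane genes gave r = 0.48 (permutation, adjusted p = 0.154) and erythroid transcription factors 0.37 (permutation, adjusted p = 0.213). Neutrophil and monocyte and macrophage lists gave r of 0.15 and 0.27 with Apol11b (permutation, adjusted p = 0.477 for both). For Apol11a, r ranged from 0.13 to 0.27 over the 6 lists and none passed the threshold (permutation, adjusted p of 0.477 to 0.503). These r ranged from -0.1 to 0.08 when GC-WT mouse 8 was left out.

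**Figure D3:**
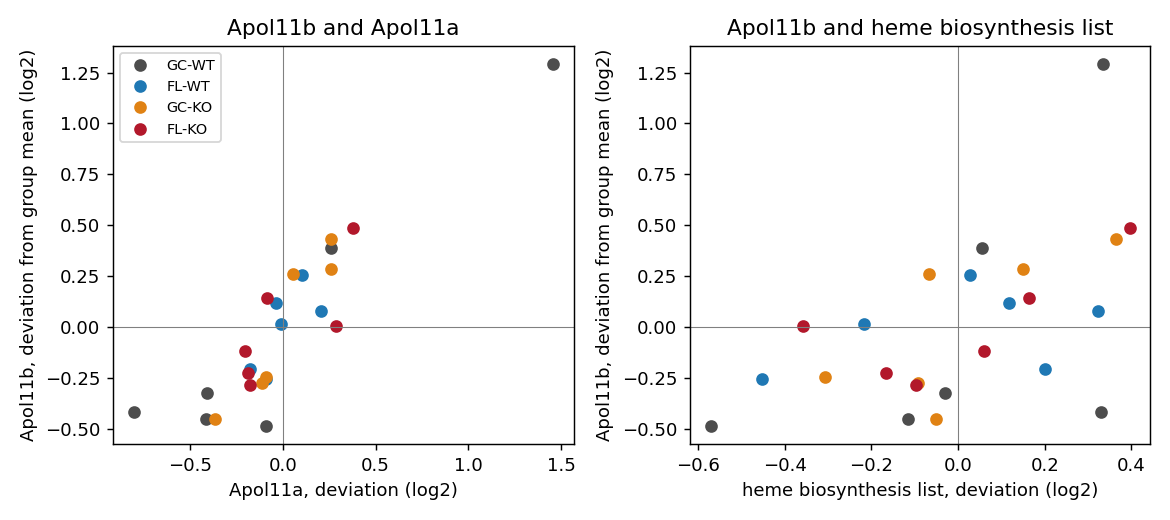
Each point is a mouse, placed by its deviation from its group mean in log2(TPM + 1), for Apol11b against Apol11a (left, r = 0.90) and against the mean of the heme biosynthesis genes (right, r = 0.55). GC-WT mouse 8 is the point at the top of both panels.

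Among the other Apol genes, Apol10c-ps and Apol10a had differences in the same direction as the pair in all 4 comparisons, also under median-of-ratios scaling. Apol10c-ps, a transcribed pseudogene 12.7 kb from Apol11b, averaged 2.59 ± 2.08 TPM (SD, n = 6) in ground and 0.717 ± 0.222 in flown wild-type mice, and 4.08 ± 1.23 in ground and 1.56 ± 0.629 in flown knockout mice. Its differences were -0.91, -0.99, 0.63 and 0.55 on the log2 scale (SE 0.23; limma adjusted p = 0.0057, 0.00203, 0.0324 and 0.0532), below the size a DEG needs. Without GC-WT mouse 8 the wild-type flight and ground genotype differences were -0.67 and 0.87. It shared no stretch of 50 nucleotides with either Apol11 transcript. Apol10a, 17.2 kb from Apol11a, was at 0.658 ± 0.506, 0.135 ± 0.0554, 1.02 ± 0.241 and 0.385 ± 0.156 TPM in the same order of groups. Its differences were -0.5, -0.55, 0.32 and 0.28 (SE 0.13, limma adjusted p = 0.0073, 0.00261, 0.0518 and 0.086). Of the stretches of 50 nucleotides in Apol11a-201, 5.8% occurred in Apol10a, and of those in Apol11b-201 7.3%. Apol11b was far more abundant than Apol10a, and the part of shared reads in the differences of Apol10a was not tested. Without GC-WT mouse 8 the differences of Apol10a became -0.36 in the wild-type flight comparison and 0.47 by genotype on the ground.

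Apol8, at the end of the cluster, fell after flight in both genotypes. It went from 10.3 ± 2.83 TPM in GC-WT to 4.49 ± 1.06 in FL-WT (log2 difference -1.03, SE 0.17, limma adjusted p = 0.00017) and from 10.3 ± 2.85 in GC-KO to 4.08 ± 0.75 in FL-KO (-1.12, SE 0.17, limma adjusted p = 4.45e-05). Its genotype differences were -0.01 (limma adjusted p = 0.972) on the ground and -0.1 (limma adjusted p = 0.683) in flight, and became 0.29 and 0.23 under median-of-ratios scaling, under which its flight differences were -0.69 and -0.75 and no longer DEGs. The first flight difference was -0.94 and no longer a DEG without GC-WT mouse 8. Apold1, a relative on chromosome 6 expressed in endothelium, had flight differences of -0.47 and -0.44 (limma adjusted p = 0.00247 and 0.00253) and genotype differences of -0.0 and 0.03 (0.16 and 0.18 under median-of-ratios scaling). Apol8 was thus the 1 DEG among the other Apol genes in each flight comparison, and none was a DEG by genotype. The remaining genes (Apol6, Apol7a, Apol7b, Apol7c, Apol7d, Apol7e, Apol9a, Apol9b and Apol10b) did not pass the filter on low values. Apol7e reached 0.77 TPM in 1 library, Apol7a was listed at 0 in all 24, and the others stayed at or below 0.19 TPM.

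**Figure D4:**
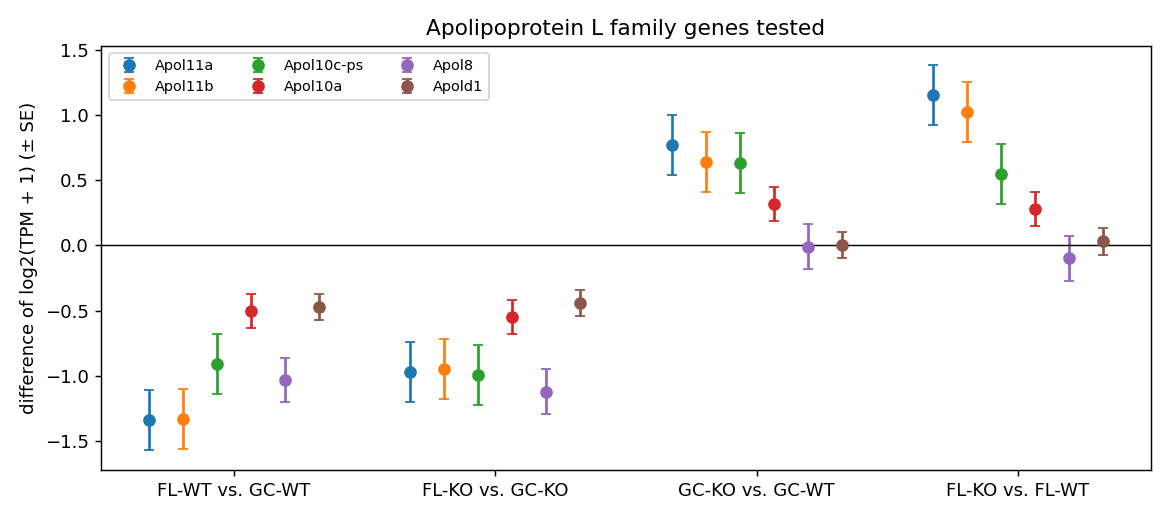
Differences in log2(TPM + 1) with SE for the 6 Apol family genes that passed the filter on low values, in the 4 comparisons. All 6 lie below 0 in both flight comparisons, whereas Apol8 and Apold1 lie within 0.1 of 0 in both genotype comparisons.

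The other tested neighbours within 500 kb had differences below 0 by genotype. Of 41 such genes 7 were tested, namely 3 Apol genes and 4 beyond Apol8. Myh9, the heavy chain of non-muscle myosin IIA, fell from 98.8 ± 28.0 TPM in GC-WT to 34.0 ± 16.9 in GC-KO (log2 difference -1.59, SE 0.28, limma adjusted p = 0.000412) and from 78.3 ± 39.7 in FL-WT to 15.9 ± 2.91 in FL-KO (-2.1, SE 0.28, limma adjusted p = 2.56e-06). Txn2, the mitochondrial thioredoxin, Foxred2 and Eif3d, a subunit of a translation initiation factor, had genotype differences between -0.41 and -0.76, against medians of -0.22 and -0.25 over all genes, and none was a DEG. Under median-of-ratios scaling the ground and in-flight genotype differences were -0.09 (limma adjusted p = 0.304) and -0.27 for Txn2, -0.36 and -0.56 for Foxred2 and -0.3 and -0.35 for Eif3d, and Myh9 remained a DEG in both (-1.25 and -1.72).

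The genes most like the pair were ranked by Pearson's r with the mean of both over the 24 libraries, among genes of at least 1 TPM on average, as a description. Apol10c-ps came first (r = 0.96, and 0.94 for deviations from group means). Without GC-WT mouse 8 its r was 0.95 and 0.88. Trim10, an erythroid ubiquitin-ligase family gene, followed at 0.87, then Isg15, the interferon-induced ubiquitin-like protein, at 0.86, and Sh3yl1 at 0.86. Gm37094 and Gm20236, 2 loci whose rows hold identical values and whose reads cannot be separated, stood at 0.85. Cd36, a fatty acid receptor also found on erythroid precursors, and Prdx2, an abundant red cell peroxidase, stood at 0.84, and Fbxo30 and Art4, which carries the Dombrock blood group antigen, at 0.83. Apart from Apol10c-ps, r for deviations from group means ranged from 0.28 to 0.51, and from 0.23 to 0.51 without GC-WT mouse 8. Trim10 was at 78.4, 44.3, 109.0 and 61.7 TPM by group mean, ground before flown and wild type before knockout, and Isg15 at 47.0, 29.7, 68.6 and 41.9 TPM.

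Many red cell genes fell after flight. Of all tested genes, 0.938% were lower DEGs in wild-type and 2.13% in knockout mice. Of 9 tested red cell membrane genes, 8 were lower DEGs in wild-type and 8 in knockout mice, among them the band 3 anion exchanger Slc4a1 (-1.15 and -1.78). Of 8 heme biosynthesis genes 3 and 5 were, including Cpox (-1.14 and -1.45). Of 11 erythroid markers 3 were in each comparison, namely the transferrin receptor Tfrc, Rhag and the erythropoietin receptor Epor, whereas the globin Hba-a1 differed by 0.03 and -0.13. Of 9 erythroid transcription factors 1 and 5 were, with the GATA cofactor Zfpm1 in both (-1.18 and -1.94). The list medians were -1.16 and -1.34 for membrane genes, -0.98 and -1.03 for heme biosynthesis, -0.78 and -0.8 for markers and -0.83 and -1.15 for the factors, against -0.24 and -0.29 over all genes. Under median-of-ratios scaling the DEGs dropped to 2 and 3 membrane genes, 0 and 1 heme biosynthesis genes, 0 and 2 factors and 0 markers in either comparison, while all list medians stayed below 0.

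By genotype, erythroid markers had medians of 0.21 on the ground and 0.15 in flight, with no DEG, and heme biosynthesis 0.02 and -0.08. Membrane genes had medians of -0.42 and -0.57 and the transcription factors -0.42 and -0.67, against -0.22 and -0.25 over all genes. In flight Slc4a1 (-1.06), Klf1 (-1.02) and Zfpm1 (-1.75) were lower DEGs. Under median-of-ratios scaling the marker medians were 0.55 in both genotype comparisons and those of heme biosynthesis 0.35 and 0.32. Those of membrane genes became -0.08 and -0.21 and those of the factors -0.1 and -0.3, and of the DEGs in flight only Zfpm1 (-1.42) was left, with Slc4a1 at -0.66 and Klf1 at -0.64. The summed level of the erythroid markers ran from 86800 to 203000 TPM among GC-WT mice and 145000 to 206000 among FL-WT mice. In knockout mice it ran from 166000 to 244000 TPM on the ground and 153000 to 222000 in flight, and its part in the levels of the pair was not tested. This sum was nearly all globin and says little about the other markers. The globin genes of the list averaged 13700 to 67200 TPM, and its other genes at most 399 TPM.

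Interferon-stimulated genes had medians of -0.41, -0.66, 0.28 and -0.06 in the 4 comparisons in the order above (-0.11, -0.28, 0.51 and 0.3 under median-of-ratios scaling), and none of the 11 tested was a DEG. Nrf2 targets had medians of -0.15, -0.23, -0.4 and -0.45, and of 9 tested only G6pdx was a DEG, lower in both genotype comparisons (-1.19 and -1.71). Under median-of-ratios scaling these medians were 0.19, 0.01, -0.13 and -0.11, and G6pdx was a DEG only in flight (-0.86 and -1.33). Among lists of other marrow cells, neutrophil medians were 0.21, -0.03, -0.49 and -0.65, with Ltf (-1.62 and -2.33) and Mmp9 (-1.92 and -2.85) lower DEGs in both genotype comparisons. So were Mpo (-1.72 and -2.39), the granule peroxidase, of the promyelocyte list and Csf1r (-1.24 and -1.74), a macrophage growth factor receptor. Promyelocyte medians were -0.02, -0.19, -0.59 and -0.71, and those of monocyte and macrophage genes -0.27, -0.5, -0.13 and -0.47. B cell medians were -0.81, -0.64, -0.53 and -0.35, T and NK cell medians -0.03, -0.1, -0.23 and -0.27, megakaryocyte medians -0.72, -0.85, -0.23 and -0.46, and stem and progenitor medians -0.27, -0.27, -0.61 and -0.67. Several of these signs turned under median-of-ratios scaling, where neutrophil medians were 0.6, 0.42, -0.15 and -0.25 and promyelocyte medians 0.37, 0.26, -0.25 and -0.3. Monocyte and macrophage medians then were 0.09, -0.09, 0.14 and -0.09, and those of B cells -0.49, -0.37, -0.28 and -0.05. T and NK cell medians were 0.23, 0.18, -0.01 and 0.01, megakaryocyte medians -0.39, -0.49, 0.07 and -0.13, and stem and progenitor medians 0.01, -0.04, -0.39 and -0.47. Ltf, Mmp9 and Mpo remained DEGs in both genotype comparisons under this scaling, and Csf1r only in flight (-0.93 and -1.43). No list median of these cells was above 0 in both genotype comparisons under either scaling. Markers of all these cells were present, and only Mecom, Hlf and Procr of the stem and progenitor list, Ifi44 and Me1 did not pass the filter on low values.

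**Figure D5:**
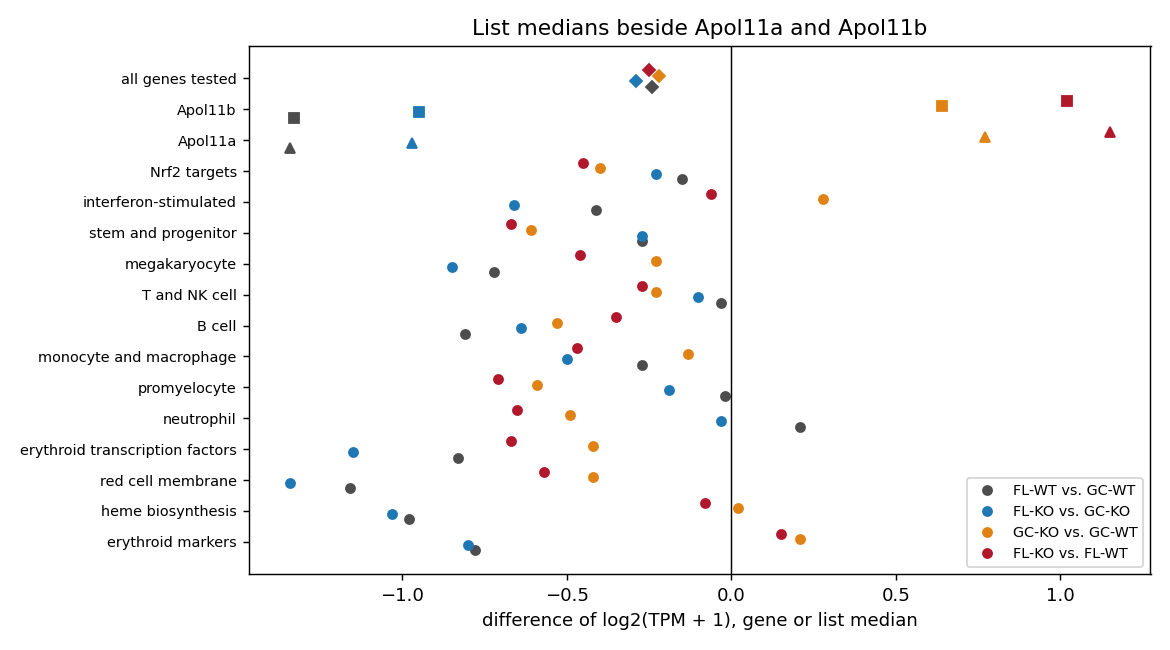
Median difference in log2(TPM + 1) of each gene list (circles), of Apol11a (triangles), Apol11b (squares) and of all tested genes (diamonds), coloured by comparison. The erythroid marker list is the 1 list with both flight medians below 0 and both genotype medians above 0, as for Apol11a and Apol11b. Under median-of-ratios scaling the heme biosynthesis and interferon-stimulated lists had that pattern too. The medians of the erythroid marker list join different genes. Of its 11 genes, 4, all globins, had wild-type flight differences above 0. By genotype 2 lay below 0 on the ground and 3 in flight, Rhag and Epor in both. Both flight medians are the values of Trim10, named above among the genes most like the pair.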

How the data were processed

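RNA from bone marrow of 24 mice was sequenced by the authors from strand-specific libraries. Per the labels and the submitters' processing notes, reads were aligned with STAR 2.6.1 to GRCm38 (mm10) and quantified with RSEM 1.3.1. The deposited values are TPM, which the authors computed per gene; they sum to a fixed total per library and carry no read depth, so counting error is unknown. The annotation release used by the authors is not given in the sources used here. Of 54752 identifiers, 54723 matched GENCODE M21.

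Genes above 1 TPM in at least 1 library were kept (12373), log2(TPM + 1) was taken, and limma 3.58.1 (R 4.3.3) fitted group means over all 24 libraries, with empirical Bayes and Benjamini-Hochberg adjustment over all genes. The script was tested on simulated data. Shares were compared with exact permutation tests and relations across mice with 100000 permutations within groups (Python 3.11.15, scipy 1.17.1). Lists were described by counts and medians. The members and lists were chosen with earlier results of these data known. Named genes were the pair, the other Apol genes, tested neighbours, the 10 genes most alike, those nearest in pattern, and DEGs of each list. Ahsp was not matched in the table. Replicates were separate mice. Alternatives were another pseudocount, other filters, scalings and thresholds, a mean-expression trend, the compared groups alone, a replicate block, a wider window and each library left out.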

Additional observations from a re-analysis of the deposited data

Results flagged for a closer look

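On the TPM scale, GC-WT mouse 8 stood apart from the other 5 GC-WT mice in 3 Apol genes. Its Apol11a level was 10.4 TPM, its Apol11b level 99.7 TPM and its Apol10a level 1.66 TPM, and the gap to the next mouse took 0.713, 0.657 and 0.729 of the range of the group, above Dixon's 95% critical value for 6 samples. On the log2(TPM + 1) scale of the fits, mouse 8 was at 3.51 for Apol11a, against 1.24 to 2.31 in the other 5 mice. For Apol11b it was at 6.65, against 4.87 to 5.75. On that scale the gap took a smaller part of the range, below the critical value, for both Apol11 genes. In all, 28 groups of 6 mice were examined in TPM, of which chance alone would flag about 1 in 20. The 3 genes lie in one cluster and share sequence, so the flags are not independent. The same mouse ranked 1 of 6 for the mean of 5 of the 13 gene lists (heme biosynthesis, neutrophil, promyelocyte, monocyte and macrophage, T and NK cell), 2 of 6 for 6 lists (erythroid markers, red cell membrane, erythroid transcription factors, stem and progenitor, interferon-stimulated, Nrf2 targets), 3 of 6 for megakaryocyte genes and 5 of 6 for B cell genes. On the log2 scale its promyelocyte mean was 7.79, against 7.13 to 7.7 in the other 5 mice, and its heme biosynthesis mean 6.61, against 5.7 to 6.6. The part of those lists in the levels of the 3 genes was not tested.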

How the results depend on the processing

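Apol11a and Apol11b kept the direction of all 4 differences under every alternative run. With a pseudocount of 0.1 Apol11a differed by -2.11 in the wild-type flight comparison and 1.9 by genotype in flight, and under median-of-ratios scaling Apol11b differed by -0.51 in the knockout flight comparison. Neither interaction passed the threshold under any alternative.

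The count of DEGs among other Apol genes was 1 in each flight comparison. In wild-type mice it became 4 with a pseudocount of 0.1, 0 under median-of-ratios scaling, 0 under quantile normalization and 2 without 5 small RNAs, and in knockout mice 3, 0, 0 and 2. With a pseudocount of 0.1 it was 1 by genotype in flight. Leaving out single libraries gave 0 to 2 in wild-type and 1 to 2 in knockout mice. The 0 came without GC-WT mouse 8 or 10 or FL-WT mouse 3 or 5, in each of which Apol8 was no longer a DEG.

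Among genes within 500 kb the count, 1 in each comparison, became 3, 0, 0 and 2 under the same 4 alternatives in the wild-type flight comparison and 3, 0, 0 and 2 in the knockout one. It was 3 by genotype in flight with a pseudocount of 0.1. In a window of 1000 kb it was 3 by genotype on the ground and 7 in flight. Leaving out single libraries gave 0 to 2 and 1 to 3 in the flight comparisons.

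Of the genes in the 13 lists, 16, 24, 6 and 14 were DEGs in the wild-type flight, knockout flight, ground genotype and in-flight genotype comparisons. These became 25, 37 and 11 in the first 3 with a pseudocount of 0.1. Under median-of-ratios scaling they were 2, 6, 3 and 6, under quantile normalization 5, 6, 3 and 6, and without 5 small RNAs 12 by genotype on the ground. Leaving out single libraries gave 8 (without FL-WT mouse 7) to 18 by genotype in flight. The cause of these changes was not tested.

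The share of Apol11a in the knockout flight comparison (-1.25 points) passed 0.05 when rank sums were compared (-1.25, exact permutation, adjusted p = 0.0346). Leaving out single mice gave -1.65 to -1.0, and it passed without FL-KO mouse 2 or GC-KO mouse 1. By genotype on the ground leaving out single mice gave 1.04 to 2.05, and it passed without GC-WT mouse 5 or 8. The weak relation of Apol11b to the neutrophil list changed sign to -0.1 under median-of-ratios scaling. Leaving GC-WT mouse 8 out of the relations across mice was chosen after seeing the data. Without it the relations of Apol11a changed sign to -0.01 with red cell membrane genes, -0.03 with erythroid transcription factors and -0.1 with monocyte and macrophage genes, none of which passed the threshold with it, and no relation changed its side of the threshold.

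The same mouse numbers occur on the ground and in flight within a genotype. Same-numbered libraries correlated by -0.03 to 0.27 in their deviations from group means, and 3 of 12 numbers matched best with their own, so the numbers were not taken as pairs. With a replicate block the differences of the pair were -1.34 and -0.97 for Apol11a and -1.33 and -0.95 for Apol11b, and the DEG counts above were 1, 1, 16 and 24. No depth is known, and 6 mice a group limit the precision.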
